A study of Crinum x powellii with 21 samples.

Results

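Genes of the amaryllid Crinum x powellii 'Album' that were expressed mainly in leaves, termed leaf-restricted genes, were followed across organs and callus. A gene was a member when it reached at least 10 CPM (estimated counts scaled to the library total) in each of the 3 leaf libraries, and when its lowest leaf level plus 1 CPM was at least 4 times its highest level plus 1 CPM in any root, bulb or basal plate library. Of 676992 genes of the assembled transcriptome, 12757 reached 10 CPM in every leaf library and 128 met both conditions, so the upper limit of 200 genes set for the list was not reached. The organ libraries chose the members, and their organ levels are therefore given as a description with no test.

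The data are 21 RNA-seq libraries of polyadenylated RNA. The organs were leaves (n = 3), root (n = 2), bulb (n = 3) and basal plate (n = 2), the compressed stem from which the bulb scales and roots grow. Per the labels' protocols they came from purchased bulbs that had been stored cold and then kept at room temperature. Callus, undifferentiated tissue that forms in culture, had grown on explants of paired bulb scales on a medium with sucrose and the cytokinins BAP and kinetin, which all callus groups shared. The medium held 4 or 2 mg/L of the synthetic auxin 2,4-D. Plates were kept in days of 14 h light and 10 h dark (lit callus) or without light for all 24 h (dark callus). These groups are lit callus at 4 mg/L (n = 3), lit callus at 2 mg/L (n = 3), dark callus at 4 mg/L (n = 3) and dark callus at 2 mg/L (n = 2). The titles of the 2 mg/L libraries carry a 3 and those of the 4 mg/L libraries a 4, and doses were taken from the treatment label. Estimated counts summed to between 26403881 and 67502918 per library, and to between 31524940 and 67502918 in leaves. A column kit served for callus RNA and a CTAB method for organ RNA, so that isolation and the contrast of callus with organs cannot be told apart. The labels do not say that libraries of a group came from separate plants or cultures, and p-values measure only the spread between these libraries, which may be technical.

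The leaf is the main site of photosynthesis in most plants, and many of the genes used there are known to be expressed more strongly when the tissue is lit. Callus grown in the dark usually lacks chlorophyll, whereas callus in light may green, and auxins such as 2,4-D are known to hold plant tissue in an undifferentiated, dividing state. The bulb of an amaryllid is itself built of leaf bases and the basal plate of stem tissue, so that the organs set against the leaf are not all unrelated to it. The files pair no feature with a gene name, and for this reason no role can be given to a member and the leaf identity of the list could not be checked against known markers. Members are named by their identifiers without the shared prefix Crpow_TRINITY_.

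The 128 genes carried 1.75%, 0.998% and 1.91% of all counts in leaves 1, 2 and 3. Their summed level was 17532, 9978 and 19124 CPM in the leaf libraries, against 324 and 508 CPM in root, 699.9, 627 and 642 CPM in bulb, and 565 and 501 CPM in basal plate. The members' median level was 70.5 CPM in leaves, 0.973 CPM in root, 1.91 CPM in bulb and 1.77 CPM in basal plate, from group means. Outside the leaf, the highest library was from bulb for 57 members, from basal plate for 43 and from root for 28. Bulb had 3 libraries, and basal plate and root 2 each, so these counts do not rank the organs. No member was at 0 counts in every library outside the leaf, and 20 stayed under 1 CPM in all of them. The list is thus one of genes that were low, and not absent, outside the leaf: 85 to 92 members reached 1 CPM in a bulb library, 72 to 75 in a basal plate library and 55 to 68 in a root library.

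**Figure D1:**
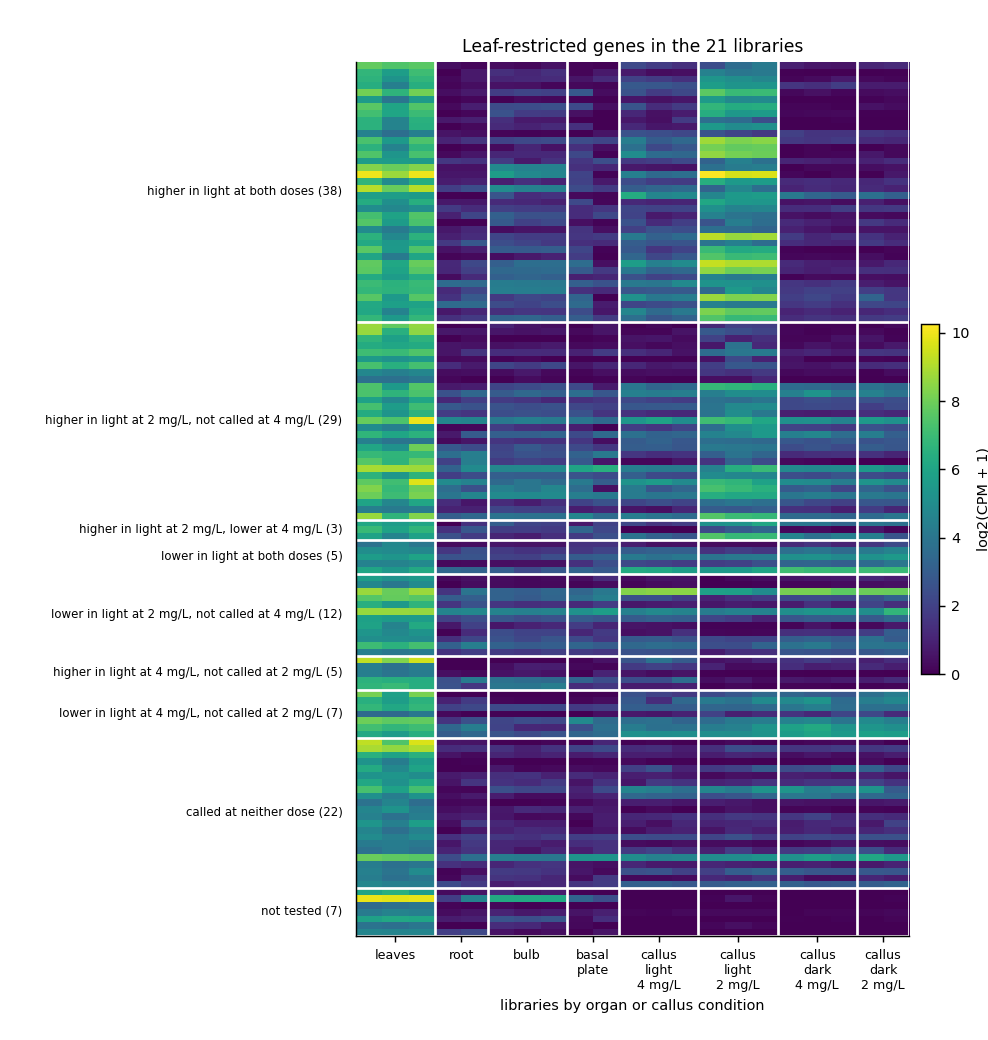
Level of each of the 128 leaf-restricted genes (1 line each, log2(CPM + 1) by colour) in the 21 libraries, with genes grouped by their calls for light against darkness in callus and the number of genes in parentheses. By the rule every gene has at least 10 CPM in each leaf library. Lit callus at 2 mg/L is bright mainly for the 38 genes that were higher in light at both doses.

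The ratio that ranked the members ran from 4.01 to 223 with a median of 7.06; 35 members had at least 10 and 7 had at least 50. The highest belonged to DN3498_c0_g1, which had 610, 317 and 722 CPM in the leaf libraries and at most 0.428 CPM in any other organ library. DN5903_c0_g1 followed, with a ratio of 123 and 219, 173 and 199 CPM in leaves. DN10237_c0_g1 had 420, 214 and 381 CPM in leaves and a ratio of 107. These genes were near 0 in the other organs, in contrast to the last members on the list.
The members just inside the limit were DN2125_c4_g1 (ratio 4.08), DN1425_c0_g1 (4.05) and DN1018_c1_g1 (4.01). Just outside it lay DN14272_c0_g1 with a ratio of 3.997, whose lowest leaf library had 69.97 CPM and whose bulb 1 library had 16.8 CPM, then DN3087_c0_g1 (3.97) and DN4641_c0_g1 (3.95). Genes on either side of the limit were therefore alike in this measure.

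Compared in TPM, a measure scaled by transcript length, mean leaf levels of the members ran from 2.68 to 1208 TPM with a median of 51.3 TPM, against a median of 25.1 TPM for the 12757 genes at 10 CPM in every leaf library. The highest was DN34285_c0_g1 at 1208 ± 1216 TPM, then DN49131_c1_g1 at 829 ± 839 TPM, DN16672_c0_g1 at 735 ± 335 TPM, DN13590_c0_g1 at 675.0 ± 34.8 TPM and DN7069_c0_g2 at 662 ± 674 TPM (SD, n = 3). Of these 5, DN34285_c0_g1, DN49131_c1_g1 and DN7069_c0_g2 varied most among leaves, with leaves 3 far above the other leaf libraries. DN34285_c0_g1 had 231, 165 and 992 CPM in leaves 1, 2 and 3, and DN49131_c1_g1 had 209, 136 and 868 CPM. Across all 21 libraries the CPM of DN49131_c1_g1 stayed between 0.605 and 1.13 times that of DN34285_c0_g1, so the pair moved in parallel; whether reads are shared between them was not tested. DN13590_c0_g1 was nearly even among leaves, at 958, 879 and 930.3 CPM.

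Leaves 2 stood apart from the other leaf libraries, although its total of 38311065 estimated counts lay between theirs. It held the lowest leaf value of 106 of the 128 members (82.8%), whereas it was the lowest leaf library for 44.5% of the 12757 genes at 10 CPM in every leaf library. A member's level in leaves 2 was 0.598 times the mean of leaves 1 and 3 in the median, with a range from 0.195 to 1.86, against a median of 0.977 for those genes. Because the lowest leaf value enters the rule, this library largely decided which genes were members: without it, 300 genes met the conditions, of which 128 were the members above. Leaving out any other organ library gave 130 to 144 genes, again with all 128 among them. The rule fixed this full overlap in advance, because leaving out a library can only keep or raise the ratio of a gene. It is therefore no sign that the list is stable.

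In callus the members were low in 3 of the 4 conditions. Their summed level was 1374, 1152 and 1126 CPM in lit callus at 4 mg/L, 7679, 5909 and 6057 CPM in lit callus at 2 mg/L, 1158, 1206 and 919 CPM in dark callus at 4 mg/L, and 1218 and 1147 CPM in dark callus at 2 mg/L. The 3 libraries of lit callus at 2 mg/L were above every other callus library and below every leaf library. The mean sum was 1217 ± 136 CPM in lit callus at 4 mg/L (SD, n = 3), 6548 ± 982 CPM in lit callus at 2 mg/L (SD, n = 3), 1094 ± 154 CPM in dark callus at 4 mg/L (SD, n = 3) and 1183 ± 50.5 CPM in dark callus at 2 mg/L (SD, n = 2), set beside 15545 ± 4886 CPM in leaves (SD, n = 3). In bulk RNA, fewer cells of a type and less RNA per cell cannot be told apart.

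**Figure D2:**
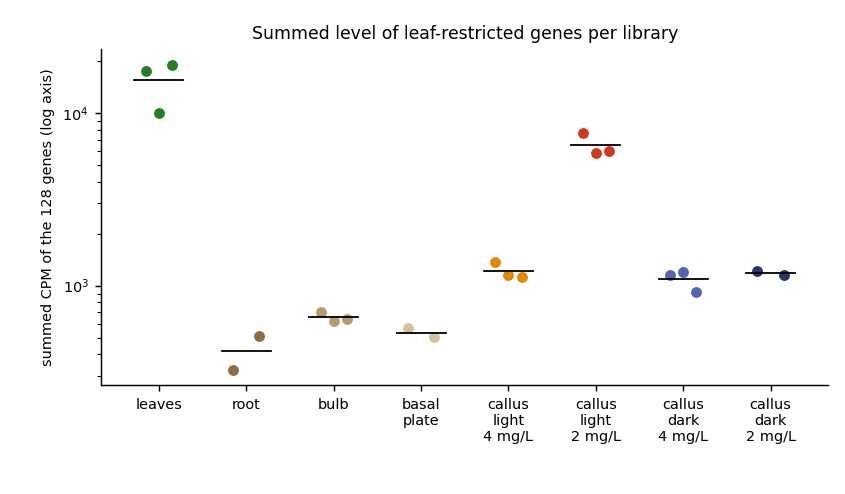
Summed CPM of the 128 leaf-restricted genes in each library (points, log axis) with the group mean (line), by organ and callus condition. Lit callus at 2 mg/L lies between 5909 and 7679 CPM, below the leaf libraries and above the other callus libraries.

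In every callus group few genes carried much of the sum. The 10 highest members of a group made up 59.7% of it in lit callus at 2 mg/L and 55.3% in lit callus at 4 mg/L. This share was 62.2% in dark callus at 4 mg/L, 62.3% in dark callus at 2 mg/L and 35.1% in leaves. In lit callus at 2 mg/L, 12 members exceeded their own leaf mean and made up 63.8% of the summed level (4180 CPM), against 12.2% in leaves, 14.3% in lit callus at 4 mg/L, 2.82% in dark callus at 4 mg/L and 2.38% in dark callus at 2 mg/L. Without these genes, picked for their values, the sums were 1043 CPM in lit callus at 4 mg/L, 2368 CPM in lit callus at 2 mg/L, 1063 CPM in dark callus at 4 mg/L and 1154 CPM in dark callus at 2 mg/L, so that lit callus at 2 mg/L was still the highest. Of these 12, all but DN1287_c0_g1 were higher in light at both doses by the tests given further on. The largest excess was that of DN6743_c0_g1, at 666% of its leaf mean, followed by DN8854_c0_g1 at 438%, DN8652_c0_g1 at 334% and DN65803_c0_g1 at 327%. DN1018_c1_g1 was the only other member above its leaf mean in a callus group, at 214% of it in dark callus at 2 mg/L. At the median a member reached 4.95% of its leaf mean in lit callus at 4 mg/L, 13.6% in lit callus at 2 mg/L, 2.03% in dark callus at 4 mg/L and 2.46% in dark callus at 2 mg/L.

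A member was termed on in a callus group when every library of that group had at least 1 CPM. By this measure 80 members (62.5%) were on in lit callus at 4 mg/L, 92 (71.9%) in lit callus at 2 mg/L, 65 (50.8%) in dark callus at 4 mg/L and 70 (54.7%) in dark callus at 2 mg/L. Of the 12757 genes at 10 CPM in every leaf library, between 97.8% and 98.9% were on in each group. Fewer members than leaf-expressed genes in general were thus on in callus, and 52 were on in all 4 groups, 13 in lit callus at 2 mg/L alone, 13 in both light groups alone and 25 in none. Shares of the 12757 genes with each of these patterns were not counted. Light with 2 mg/L was the highest callus group of 78 members (60.9%) and of 30.2% of the 12757 genes.

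The effect of light was tested in one fit of the 11 callus libraries, none of which had a part in choosing the members (edgeR quasi-likelihood test, with the false discovery rate, FDR, adjusted over all 121349 genes tested). A gene is termed called, higher or lower when its FDR was under 0.05. The fit tested 121 of the 128 members; the other 7, DN134282_c0_g2, DN13590_c0_g1, DN16503_c0_g1, DN10587_c0_g1, DN31758_c0_g1, DN6782_c0_g1 and DN20352_c0_g1, had too few counts in callus.

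At 2 mg/L, light raised most of the members. Of the 128, 70 were higher in light than in darkness, beside 13.4% of all genes tested, and 17 were lower, beside 12.1%. Among the 70, the median fitted log2 fold change was 4.32 (0.94 to 11.89), with 60 changed at least 4-fold and 30 at least 32-fold. The 17 were changed less, with a median of -1.68, and 7 of them by at least 4-fold. Over all 128 members the median log2 ratio of mean CPM + 1 was 1.12, against -0.09 over all genes tested. Scaling by library totals in place of TMM gave 68 higher and 22 lower members, while over all genes the calls shifted to 11852 higher and 23322 lower, against 16291 and 14718 with TMM.

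The member with the most marked change among the abundant ones was DN16672_c0_g1. It had 1214, 758 and 819 CPM in lit callus at 2 mg/L, against 0.0536 and 0.566 CPM in dark callus at 2 mg/L. Its light values overlapped the leaf values of 1012, 417 and 1013 CPM, while in darkness it was below every bulb library (50.8, 27.0 and 23.8 CPM). The fitted log2 fold change was 11.81 ± 0.57 (SE), edgeR FDR 5.34e-15.
DN6743_c0_g1 had 587, 405 and 449 CPM in light, against 1.80 and 0.980 CPM in darkness, and 94.4, 26.6 and 95.2 CPM in leaves. All its light libraries were above all its leaf libraries, and the log2 fold change between light and darkness was 8.76 ± 0.44 (SE), edgeR FDR 9.25e-15. DN8652_c0_g1 had 276, 220.3 and 232 CPM in light, against 0 and 0.174 CPM in darkness, and changed by 11.62 ± 0.66 on the log2 scale (SE), edgeR FDR 1.02e-13. Its leaf values of 93.8, 22.6 and 101 CPM were again lower than those of lit callus.
DN1176_c2_g1 (44.8, 30.1 and 34.0 CPM in light, 0.0268 and 0 CPM in darkness), DN11555_c2_g2 (123, 71.2 and 79.02 CPM in light, 0.0268 and 0.109 CPM in darkness) and DN29931_c0_g1 were of the same kind. DN29931_c0_g1 had 12.3, 10.8 and 4.34 CPM in light and no count in the darkness libraries, and against a limit of 3 counts over both dark libraries lit callus was at least 254-fold higher.

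Of the members with the highest ratios, some rose with light but stayed far under their leaf values, and others were not called. DN10237_c0_g1 rose to 1.22, 2.80 and 2.67 CPM in light, against 0.0536 and 0.196 CPM in darkness (log2 fold change 4.42 ± 0.66 (SE), edgeR FDR 6.75e-06). DN943_c0_g1 behaved likewise, with 6.37, 4.55 and 3.34 CPM in light against 0.188 and 0.0435 CPM in darkness, and 404, 87.9 and 367 CPM in leaves. DN1878_c0_g1 came closer to the leaf, with 11.2, 15.9 and 17.6 CPM in light against 2.04 and 1.87 CPM in darkness, and 134, 123 and 172 CPM in leaves (log2 fold change 3.27 ± 0.37 (SE), edgeR FDR 5.82e-08). DN134_c0_g1 was called higher as well, by 3.08 on the log2 scale, from levels under 1 CPM in darkness. DN7149_c0_g1, at 492, 387 and 514 CPM in leaves, was not called: it had 1.61, 4.43 and 4.01 CPM in light and 2.14 and 2.55 CPM in darkness. DN10827_c0_g1 was called higher, but its light values were 0.576, 13.6 and 1.24 CPM, and without replicate B the log2 fold change of 3.70 became 1.49 (edgeR FDR 0.048).

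Of the 5 genes with the highest leaf TPM, DN16672_c0_g1 is described above, DN13590_c0_g1 was not tested, and DN34285_c0_g1, DN49131_c1_g1 and DN7069_c0_g2 had smaller fold changes than DN16672_c0_g1. DN34285_c0_g1 had 136, 117 and 66.4 CPM in lit callus at 2 mg/L, against 45.9 and 35.0 CPM in darkness (log2 fold change 1.68 ± 0.27 (SE), edgeR FDR 1.9e-05). DN49131_c1_g1 and DN7069_c0_g2 rose by 1.72 and 1.62 on the log2 scale. The last 3 were present in every organ and callus library, at lower levels than in leaves.

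Among the 17 members that were lower in light at 2 mg/L, DN9404_c0_g1 was the most abundant in callus. It had 57.7, 55.9 and 30.6 CPM in light, against 246 and 237 CPM in darkness, a log2 fold change of -2.04 ± 0.22 (SE), edgeR FDR 3.06e-08. In every other callus group it was near its leaf values of 413, 229 and 417 CPM, and it alone made up 28.2% of the summed level of the members in lit callus at 4 mg/L, 23.3% in dark callus at 4 mg/L and 20.4% in dark callus at 2 mg/L. DN1799_c0_g1 fell to 0.119, 0.114 and 0.120 CPM in light, against 2.68 and 7.34 CPM in darkness (log2 fold change -5.01 ± 0.58 (SE), edgeR FDR 1.01e-07). DN17524_c0_g1 had 1.76, 2.61 and 2.10 CPM in light and 17.5 and 23.1 CPM in darkness, and DN7607_c0_g1 and DN3654_c0_g1 also fell, by 1.99 and 1.59 on the log2 scale. For DN17524_c0_g1 the darkness values were close to its leaf values of 31.8, 29.1 and 25.4 CPM.

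At 4 mg/L fewer members responded, and by less. In light 43 were higher than in darkness, beside 7.32% of all genes tested, and 15 were lower, beside 5.28%. The 43 had a median log2 fold change of 2.84 (0.76 to 7.66), with 32 changed at least 4-fold and 10 at least 32-fold, and the 15 had a median of -1.14. Over all 128 members the median log2 ratio of mean CPM + 1 was 0.11, against 0.02 over all genes tested.

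DN16672_c0_g1 had 20.7, 10.2 and 12.1 CPM in lit callus at 4 mg/L, against 0.136, 0.0201 and 0.190 CPM in dark callus at 4 mg/L (log2 fold change 6.91 ± 0.44 (SE), edgeR FDR 4.03e-12). DN8652_c0_g1 had 12.9, 3.71 and 5.90 CPM in light, against 0, 0.100 and 0 CPM in darkness, and changed by 7.66 ± 0.57 (SE), edgeR FDR 7.18e-11. DN7744_c3_g1 had 30.8, 10.97 and 9.68 CPM in light, against 0.0194, 0.100 and 0.148 CPM in darkness. Lit and dark libraries did not overlap for these genes, yet all were far below their levels in lit callus at 2 mg/L. Among members with at least 5 CPM in lit callus at 4 mg/L and no overlap of libraries, DN33723_c0_g1 and DN65803_c0_g1 came next, with rises of 5.46 and 5.07 on the log2 scale. From lower levels, DN11555_c2_g2, DN1176_c2_g1 and DN8802_c0_g2 rose by 6.98, 6.40 and 5.69.

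The 5 members that were higher in light at 4 mg/L and not called at 2 mg/L were DN3498_c0_g1, DN16107_c0_g1, DN16650_c1_g1, DN17987_c0_g1 and DN885_c2_g1. DN3498_c0_g1 had 5.55, 13.7 and 6.62 CPM in light, against 1.82, 2.53 and 1.61 CPM in darkness (log2 fold change 2.11 ± 0.35 (SE), edgeR FDR 8.59e-05). DN16107_c0_g1 had 4.38, 4.29 and 11.6 CPM in light, against 0.639, 0.522 and 0.718 CPM in darkness (log2 fold change 3.498 ± 0.40 (SE), edgeR FDR 2.54e-07). Both stayed at a small part of their leaf levels. The call for DN16650_c1_g1 was lost in 5 of the 11 fits that left out a library, with an edgeR FDR of up to 0.159.

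Among the 15 members that were lower in light at 4 mg/L, DN6618_c0_g1 had 18.5, 12.8 and 13.3 CPM in light, against 57.1, 74.1 and 38.1 CPM in darkness, and 141, 105 and 134 CPM in leaves. Its log2 fold change was -1.93 ± 0.28 (SE), edgeR FDR 9.07e-06. DN15225_c0_g1 had 6.15, 1.43 and 10.1 CPM in light, against 27.2, 38.3 and 10.9 CPM in darkness, and its call (-2.04 ± 0.45 (SE), edgeR FDR 0.00208) was not made by DESeq2 (adjusted p 0.0587). DN15930_c0_g1 was lower in light at both doses, by 1.47 at 4 mg/L and 1.57 at 2 mg/L on the log2 scale. DN35050_c3_g1 was at or under 0.0479 CPM in every organ other than the leaf, yet had 4.85, 3.22 and 2.27 CPM in lit callus at 4 mg/L, 9.15, 7.15 and 5.96 CPM in dark callus at 4 mg/L, and 12.5 and 19.5 CPM in dark callus at 2 mg/L. Its lower call in light at 4 mg/L (log2 fold change -1.14 ± 0.30 (SE), edgeR FDR 0.0105) was lost in 3 of the 11 fits that left out a library, with an FDR of up to 0.0625.

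**Figure D3:**
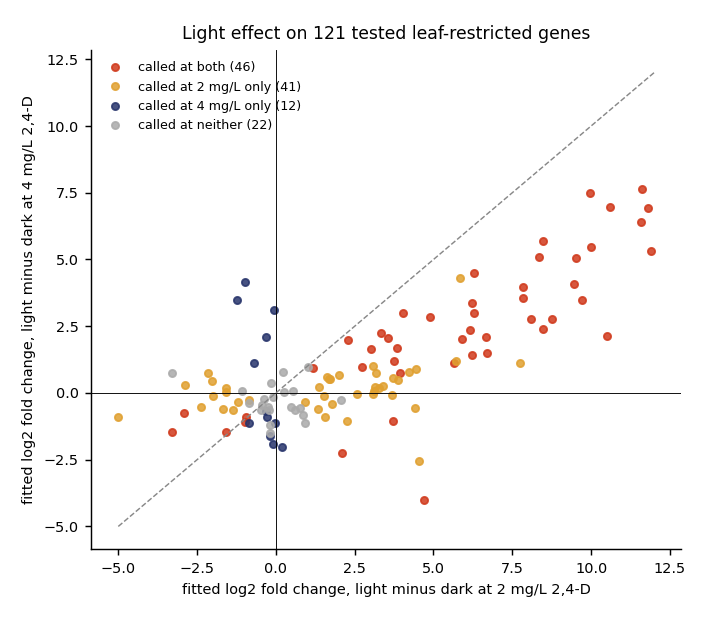
Fitted log2 fold change of light over darkness at 2 mg/L (horizontal axis) and at 4 mg/L (vertical axis) for the 121 tested leaf-restricted genes, coloured by the doses at which a gene was called, with a dashed line of equal change. All 38 genes higher at both doses lie below the dashed line.

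Most members that were higher in light at 4 mg/L, 38 of 43, were also higher at 2 mg/L, whereas of the 15 lower ones 5 were also lower at 2 mg/L. All 38 had the larger fitted log2 fold change at 2 mg/L, and the interaction test given further on called that difference for 26 of them. By the ratio of mean CPM + 1, DN7815_c0_g1 (1.94 at 4 mg/L and 1.86 at 2 mg/L, log2) and DN9321_c0_g1 (0.73 and 0.64) had the larger value at 4 mg/L. The median level of the 38 was 4.12 CPM in lit callus at 4 mg/L, 38.2 CPM in lit callus at 2 mg/L, 0.765 CPM in dark callus at 4 mg/L and 0.668 CPM in dark callus at 2 mg/L. A further 29 were higher in light at 2 mg/L and not called at 4 mg/L, and 5 were higher at 4 mg/L and not called at 2 mg/L. Light lowered 5 members at both doses, 12 at 2 mg/L with no call at 4 mg/L and 7 at 4 mg/L with no call at 2 mg/L. Neither dose gave a call for 22 members. Shares of all genes tested with calls at both doses, at a single dose or at neither were not counted. Across the 128 members, the log2 ratios of light over darkness (CPM + 1) at the 2 doses had a Spearman correlation of 0.709, against 0.566 across the 12757 genes; genes are not independent replicates, and each dose has its own libraries.

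Opposite calls were found in 3 members. DN4565_c0_g1 was higher in light at 2 mg/L, with 36.01, 38.02 and 67.9 CPM against 15.2 and 13.2 CPM in darkness (log2 fold change 2.11 ± 0.32 (SE), edgeR FDR 9.67e-06). At 4 mg/L it was lower in light, with 3.65, 2.01 and 2.70 CPM against 15.1, 14.8 and 9.27 CPM in darkness (log2 fold change -2.24 ± 0.29 (SE), edgeR FDR 1.66e-06). Its dark values were thus alike at the doses, and its lit values lay on either side of them. DN1287_c0_g1 had 174, 117 and 123 CPM in lit callus at 2 mg/L and 13.8, 8.38 and 5.64 CPM in lit callus at 4 mg/L, around dark values of 5.38 to 23.8 CPM. DN3720_c1_g1 had 3.98, 6.63 and 9.31 CPM in lit callus at 2 mg/L but 0.0194, 0 and 0 CPM in lit callus at 4 mg/L. Its log2 ratio of mean CPM + 1 in light over darkness was 2.52 at 2 mg/L and only -0.18 at 4 mg/L. At 4 mg/L the mean of this gene was thus under 1 CPM in lit and in dark callus, and its lower call rests on few counts. For DN1287_c0_g1 the lower call at 4 mg/L was lost in 4 of the 11 fits that left out a library (log2 fold change -0.88, edgeR FDR 0.135, without replicate C of lit callus at 4 mg/L), and for DN3720_c1_g1 in 3 of them (-3.504, edgeR FDR 0.0683, without replicate B of that group).

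**Figure D4:**
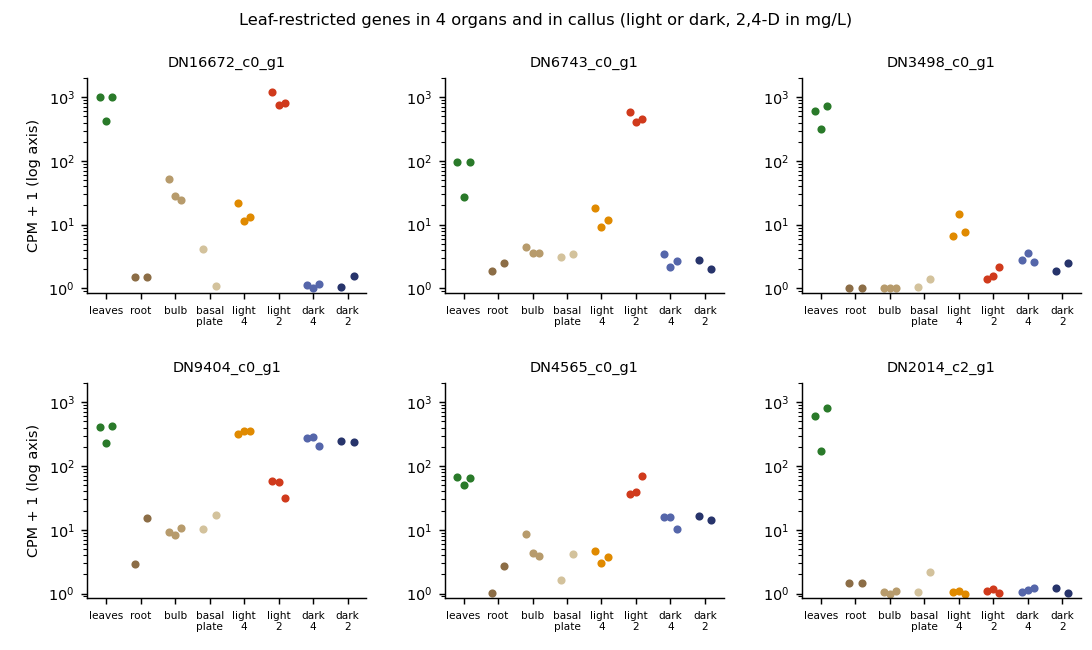
CPM + 1 (log axis) of 6 leaf-restricted genes in every library, by organ and by callus condition (light or dark, with 2,4-D in mg/L). DN16672_c0_g1 and DN6743_c0_g1 peak in lit callus at 2 mg/L, DN3498_c0_g1 is higher in lit callus at 4 mg/L, DN9404_c0_g1 is lowest among callus groups in lit callus at 2 mg/L, and DN2014_c2_g1 stays under 1 CPM in every callus library.

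Among lit libraries the members were lower at 4 than at 2 mg/L. At 4 mg/L, 75 members were lower, beside 10.6% of all genes tested, and 14 were higher, beside 11.1%. The 75 had a median log2 fold change of -3.39 (-9.77 to -0.63), with 58 changed at least 4-fold and 15 at least 32-fold. Over all 128 members the median log2 ratio of mean CPM + 1 was -1.004, against 0.05 over all genes tested. This comparison shares its 2 mg/L libraries with the test of light at 2 mg/L, and 67 of the 70 members higher there were lower here. Scaling by library totals gave 16 higher and 72 lower members, with 17027 higher and 9804 lower over all genes, against 13490 and 12863 with TMM.

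DN21384_c0_g1 had 1.22, 0.380 and 0.705 CPM in lit callus at 4 mg/L, against 83.3, 43.4 and 48.6 CPM in lit callus at 2 mg/L (log2 fold change -6.44 ± 0.34 (SE), edgeR FDR 3.22e-14). DN8802_c0_g2 had 0.543, 0.375 and 0.523 CPM against 26.5 to 47.2 CPM, and DN16672_c0_g1 fell by 6.20 ± 0.36 on the log2 scale (SE), edgeR FDR 2.02e-13. At 2 mg/L each of these was within or near its leaf range, and at 4 mg/L each was far below every leaf library. DN3720_c1_g1 and DN1176_c2_g1 fell by 9.77 and 5.69 on the log2 scale, and these 5 had the largest falls among members with at least 5 CPM at 2 mg/L. DN786_c0_g2, at a mean of 1.76 CPM at 2 mg/L, fell by 6.03.
Higher at 4 mg/L in light was DN16107_c0_g1, with 4.38, 4.29 and 11.6 CPM against 0.305, 0.682 and 0.224 CPM at 2 mg/L (log2 fold change 4.12 ± 0.43 (SE), edgeR FDR 2.23e-08). DN3498_c0_g1, the gene with the highest ratio on the list, had 5.55, 13.7 and 6.62 CPM at 4 mg/L against 0.423, 0.568 and 1.19 CPM at 2 mg/L (log2 fold change 3.31 ± 0.38 (SE), edgeR FDR 1.36e-07). DN9404_c0_g1 had 322, 354 and 355 CPM at 4 mg/L against 57.7, 55.9 and 30.6 CPM at 2 mg/L. These genes ran against the list as a whole, as did DN17524_c0_g1 and DN3654_c0_g1, which were higher by 1.67 and 1.59 (log2 fold change).

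In darkness few members were called between the doses. At 4 against 2 mg/L, 2 members were higher, beside 0.419% of all genes tested, and 0 were lower, beside 0.0832%. An unadjusted p under 0.05 in edgeR was found for 25 members, with no share over all genes counted. DESeq2 also called 2 higher and 0 lower. DN9037_c0_g1 had 2.02, 1.59 and 2.64 CPM at 4 mg/L against 0.697 and 0.740 CPM at 2 mg/L (log2 fold change 1.70 ± 0.30 (SE), edgeR FDR 0.00422). DN14073_c1_g1 had 2.03, 1.67 and 2.30 CPM against 0.777 and 0.457 CPM (log2 fold change 1.88 ± 0.36 (SE), edgeR FDR 0.0106). Both calls were lost without replicate C of dark callus at 2 mg/L, at an FDR of 0.0837 for DN9037_c0_g1 and of 0.349 for DN14073_c1_g1 (edgeR), and that group has 2 libraries. Library totals in place of TMM left the member counts at 2 and 0, with 270 higher and 98 lower over all genes, against 509 and 101 with TMM.

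The difference between the light effects at the doses was tested as an interaction. The signed log2 fold change of light was lower at 4 than at 2 mg/L for 60 members, beside 5.96% of all genes tested. It was higher for 12, beside 5.56%. Of the 12, 6 were lower in light at 2 mg/L with no call at 4 mg/L, and 2 were lower at both doses. For these a higher value means that the fall in light was weaker or absent at 4 mg/L. DN9404_c0_g1 had a log2 ratio of mean CPM + 1 in light over darkness of -2.30 at 2 mg/L and 0.43 at 4 mg/L. Of the 60, 3 were lower in light at 4 mg/L with no call at 2 mg/L, so their fall was larger at 4 mg/L. Library totals in place of TMM gave 48 lower and 15 higher members, with 4939 and 10997 over all genes, against 7231 and 6748 with TMM. Of the 38 members that were higher in light at both doses, 26 were among the 60, and so were 26 of the 29 that were called at 2 mg/L alone. Leaving out each callus library in turn, 45 of the 60 and 7 of the 12 were called in all 11 fits, as were 66 of the 70 and 11 of the 17 members called for light at 2 mg/L. For light at 4 mg/L these were 37 of 43 and 8 of 15, and for dose in light 66 of 75 and 11 of 14.

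Members that rose with light at 2 mg/L tended to be those that were low in leaves 2. Leaves 2 was below 0.5 times the mean of leaves 1 and 3 for 50 members. Light at 2 mg/L raised 41 and lowered 2 of these, beside 13.4% and 12.1% of all genes tested. Light at 4 mg/L raised 27, beside 7.32%. Of the other 78 members, 29 were higher and 15 lower in light at 2 mg/L, and 16 were higher at 4 mg/L. The 50 had a median of 39.6 CPM in lit callus at 2 mg/L and 1.30 CPM in dark callus at 2 mg/L, and the 78 had 3.48 and 1.92 CPM. Across the 128 members the level in leaves 2 relative to leaves 1 and 3 had a Spearman correlation of -0.544 with the log2 ratio of light over darkness at 2 mg/L and of -0.387 with that at 4 mg/L, and across the 12757 genes of -0.247 and -0.158. The genes share their libraries, and the leaf value also entered the choice of members, so these are descriptions of the list.

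**Figure D5:**
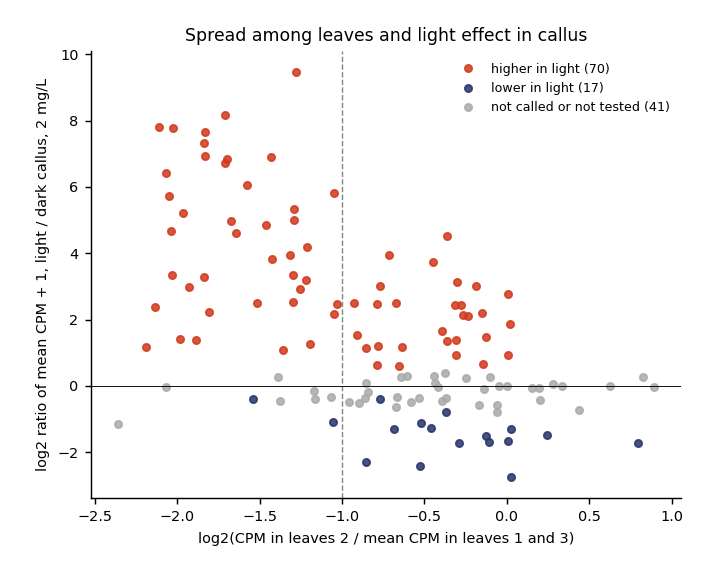
For each leaf-restricted gene, the log2 level in leaves 2 over the mean of leaves 1 and 3 (horizontal axis) and the log2 ratio of mean CPM + 1 in light over darkness at 2 mg/L (vertical axis), coloured by the call for light. Left of the dashed line, at 0.5 times the mean, 41 of 50 genes were higher in light, beside 13.4% of all genes tested.

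Not all members were seen in callus. In 17 members (13.3%) every callus library was under 1 CPM. This share was not counted for the 12757 genes at 10 CPM in every leaf library, of which at least 97.8% were on in each callus group. DN13590_c0_g1, at 958, 879 and 930.3 CPM in leaves and 73.9, 70.8 and 68.7 CPM in bulb, had 27 counts over the 11 callus libraries and at most 0.530 CPM in one of them. This gene was thus well above 1 CPM in bulb, the organ the explants came from, and nearly at 0 in callus. DN2014_c2_g1, with 617, 171 and 818 CPM in leaves, had at most 0.241 CPM in callus. DN16503_c0_g1 (10.6, 12.7 and 14.7 CPM in leaves) and DN20352_c0_g1 (24.3, 23.6 and 24.4 CPM) had 0 counts in all 11 callus libraries, which allows a level of up to 0.00560 CPM over the pooled callus counts, for counting error alone. Both are among the members that could not be tested. In DN885_c2_g1, which had 102, 117 and 83.6 CPM in leaves, callus stayed under 1 CPM, but lit callus at 4 mg/L (0.698, 0.698 and 0.906 CPM) was above dark callus at 4 mg/L (0.116, 0.100 and 0.0422 CPM), a log2 fold change of 3.12 ± 0.52 (SE), edgeR FDR 8.77e-05.

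In the assembly the members had a median of 4 isoforms each (1 to 13), and 25 (19.5%) had 1 isoform, against 11.8% of the 12757 genes. They came from 127 components of the assembly. The only component with more than 1 member held DN5903_c0_g1 and DN5903_c0_g2, which differed in callus: DN5903_c0_g1 had 4.32, 11.3 and 17.1 CPM in lit callus at 2 mg/L and 219, 173 and 199 CPM in leaves, while DN5903_c0_g2 had 11.9, 33.7 and 45.1 CPM in lit callus at 2 mg/L and 30.3, 20.7 and 41.0 CPM in leaves. Reads common to both cannot be assigned with certainty, and their split is uncertain. Among the 103 members with several isoforms, the leading one held 66.6% of the gene's leaf TPM in the median. The same isoform led as in leaves for 38 of 65 members on in lit callus at 4 mg/L, 56 of 75 in lit callus at 2 mg/L, 31 of 53 in dark callus at 4 mg/L and 32 of 56 in dark callus at 2 mg/L, and it led in each leaf library for 89 of 103.

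The same rule with root or bulb in the place of leaves gave 138 root-restricted and 46 bulb-restricted genes. In light at 2 mg/L, 103 root-restricted (74.6% of the list) and 31 bulb-restricted genes (67.4%) were higher, beside 13.4% of all genes tested. This share was 54.7% for the leaf-restricted genes. In the root and bulb lists 14 and 2 were lower, beside 12.1%. In light at 4 mg/L, 106 root-restricted (76.8%) and 21 bulb-restricted genes (45.7%) were higher, beside 7.32% of all genes tested and 33.6% of the leaf-restricted genes. In the root and bulb lists 3 each were lower, beside 5.28%. The count of higher genes at 4 mg/L was thus below that at 2 mg/L for the leaf-restricted (43 and 70) and bulb-restricted genes, and not for the root-restricted genes. At 4 mg/L in light, 61 root-restricted genes were higher and 27 lower than at 2 mg/L, against 14 and 75 of the leaf-restricted genes, while of the bulb-restricted genes 5 were higher and 24 lower, beside 11.1% higher and 10.6% lower over all genes tested. Differences between the lists were not tested.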

How the data were processed

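Expression was measured by RNA-seq in 21 libraries, and samples were grouped by the organ and treatment given in the labels. The authors deposited estimated counts per isoform from salmon and from another quantifier, which no source used here names, together with TPM per isoform and per gene. The submitters' processing notes list fastp 0.23.4, kallisto 0.46.1 and Salmon 1.4.0. The deposited tables named as gene counts hold rescaled TPM and were not used. Estimated counts were summed per gene over isoforms, scaled to CPM by library total and, for tests, rounded to whole numbers. Depth was 26403881 to 67502918 estimated counts per library. Limits given for 0 counts cover counting error alone, whereas SD and SE values reflect the spread between libraries.

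The 11 callus libraries were fitted together with edgeR 4.0.16 in R 4.3.3 (TMM, filterByExpr, a mean per group, quasi-likelihood test, Benjamini-Hochberg adjustment over 121349 genes, FDR threshold 0.05). The procedure was tested on simulated counts with the same dispersion for every gene and few changed genes. That setting was simpler than these data, so it gives no error rate for them. The SE given is the absolute log2 fold change divided by the square root of the test's F statistic, so it is approximate. Members and lists were chosen with earlier results of these data known. Named genes were the 10 highest ratios, the 5 highest leaf TPM, the members beside the limit and up to 5 per direction of each test by log2 fold change, with at least 5 CPM in the higher group and no overlap of libraries; other genes were named after their values were seen. The labels do not say whether replicate letters pair the libraries, and no pairing was used in the main fit. Alternatives were RLE factors, library totals, other filters, DESeq2 1.42.0, salmon counts, limma 3.58.1 on log2 TPM with 1 or 0.1 added, a replicate block and leaving out each library.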

Additional observations from a re-analysis of the deposited data

Results flagged for a closer look

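The effect of light on the leaf-restricted genes differed between the doses of 2,4-D by the interaction test (edgeR, FDR under 0.05). The signed log2 fold change of light was higher at 4 than at 2 mg/L for 12 members and lower for 60. A higher value can also mean that a fall in light was weaker or absent. The log2 difference of the light effects was 4.74 for DN16107_c0_g1, 4.10 for DN1799_c0_g1, 2.48 for DN9404_c0_g1, 2.41 for DN3498_c0_g1 and 2.18 for DN17524_c0_g1. It was -8.73 for DN3720_c1_g1, -8.35 for DN21384_c0_g1, -6.22 for DN2264_c0_g1, -6.07 for DN16319_c0_g1 and -6.00 for DN6743_c0_g1. DN16319_c0_g1 had 19.3, 6.81 and 10.0 CPM in lit callus at 4 mg/L, 445, 301 and 340.0 CPM in lit callus at 2 mg/L, 2.29, 2.03 and 2.37 CPM in dark callus at 4 mg/L, and 1.37 and 1.198 CPM in dark callus at 2 mg/L. DN2264_c0_g1 had 0.621, 0.273 and 0.342 CPM in lit callus at 4 mg/L and 21.4, 15.4 and 16.4 CPM in lit callus at 2 mg/L, and stayed under 0.05 CPM in darkness.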

How the results depend on the processing

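Most counts of members stayed within 1.5 times the reported ones. At 4 mg/L, limma on log2(TPM + 0.1) called 9 members lower in light in place of 15, and for 4 against 2 mg/L in light limma on log2(TPM + 1) called 9 higher in place of 14. For 4 against 2 mg/L in darkness both limma settings called 0 higher in place of 2, and without a filter on low counts 2 were lower in place of 0. Leaving out a library gave 0 to 5 higher and 0 to 2 lower there; on the genes tested with all libraries, an alternative chosen after seeing the data, it was 4 higher and 1 lower without replicate A of dark callus at 2 mg/L and 0 without replicate C. For the interaction, 7 to 13 members had a higher signed log2 fold change of light at 4 mg/L in place of 12. The low end came from the alternative without that replicate C on the genes tested with all libraries. The labels do not say whether library letters pair the libraries, and same-letter deviations correlated at -0.107 to 0.163. A replicate block by library letter gave 68 higher and 17 lower members for light at 2 mg/L. It changed none of the 40 results of single genes. Of the 880 alternatives for these, 873 kept their direction and call, 7 lost the call and none reversed: DN15225_c0_g1 had an FDR of 0.0587 with DESeq2, DN35050_c3_g1 lost its lower call at 4 mg/L in 5 settings (edgeR and limma FDR 0.0501 to 0.064), and DN3498_c0_g1 had an interaction of 2.05 (edgeR FDR 0.0521) without replicate C of dark callus at 2 mg/L. With library totals in place of TMM, the median log2 fold change of all genes moved to -0.38 for light at 2 mg/L, against -0.06. By the other choices of members, salmon gave 126 genes (120 shared), TPM 161 (107 shared) and a floor of 20 CPM 100.0 genes, all shared. A higher floor can only remove genes, so the last overlap was fixed in advance. Genes under 1 CPM rest on few counts, and dark callus at 2 mg/L had 2 libraries.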
